A study of Homo sapiens with 8 samples.

Results

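The 67 chemokine and chemokine receptor genes of the Molm13 table were followed through bulk RNA-seq libraries from 2 lines, Molm13 and THP1, after knockdown (KD) of PRMT9. Members were taken by name alone, as genes with a numbered CCL, CXCL, CX3CL or XCL symbol (ligands), a numbered CCR, CXCR, CX3CR, XCR or ACKR symbol (receptors), or the symbols PF4 and PPBP. This gave 45 ligands and 22 receptors among 57992 genes, and all 67 identifiers were also present in the THP1 table. Molm13 and THP1 are human acute myeloid leukemia (AML) lines of monocytic type, and the question was how loss of PRMT9, an arginine methyltransferase, changes their RNA. The 4 groups were Molm13 shCtrl, Molm13 shPRMT9, THP1 shCtrl and THP1 shPRMT9, each with 2 libraries. All cells, controls included, received doxycycline to induce the shRNA. The genotype is labeled WT for shCtrl and PRMT9 knockdown for shPRMT9. Numbers 1 and 2 were read as replicates. The study also numbers its PRMT9 hairpins, so that the KD libraries may carry different hairpins. No source used here says that same-group libraries came from separate cultures, and p-values then measure only the spread between these libraries, which may be technical.

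Chemokines are small secreted proteins that guide the movement of leukocytes by binding G-protein-coupled receptors on them. The CC and CXC families are named for the spacing of their first cysteines. Monocytes are both a source and a target of chemokines, and several of these genes, such as CXCL10, are induced by interferons, whereas others, such as CXCL8, are classical targets of NF-κB. Atypical receptors (ACKR) bind chemokines without classical G-protein signaling and remove or store them.

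Start regions are shown first for ligand genes that lie together on chromosome 4. The largest fitted changes were those of chromosome 17 ligands, CCL4L2 in Molm13 and CCL4 in THP1, whose start regions are not shown. The CXCL9, CXCL10 and CXCL11 genes encode the ligands of CXCR3. The 250 bases upstream of their RefSeq starts on GRCh38.p14 are given below, 5′ to 3′ on the gene's strand. Capitals mark matches on either strand to the core of an interferon-stimulated response element, searched as GAAA, any 2 bases and GAAA, or to the NF-κB consensus, which is named only.
CXCL9 (chr4:76007510-76007759, minus strand): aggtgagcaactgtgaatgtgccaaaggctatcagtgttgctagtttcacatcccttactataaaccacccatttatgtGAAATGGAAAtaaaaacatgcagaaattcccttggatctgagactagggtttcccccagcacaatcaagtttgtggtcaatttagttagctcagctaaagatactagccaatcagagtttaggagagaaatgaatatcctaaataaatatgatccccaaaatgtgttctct
CXCL10 (chr4:76023498-76023747, minus strand): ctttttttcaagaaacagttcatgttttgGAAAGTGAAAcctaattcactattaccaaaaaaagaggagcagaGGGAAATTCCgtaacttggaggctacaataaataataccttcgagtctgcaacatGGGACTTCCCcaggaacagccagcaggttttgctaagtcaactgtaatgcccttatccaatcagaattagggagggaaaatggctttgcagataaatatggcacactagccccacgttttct
CXCL11 (chr4:76036071-76036320, minus strand): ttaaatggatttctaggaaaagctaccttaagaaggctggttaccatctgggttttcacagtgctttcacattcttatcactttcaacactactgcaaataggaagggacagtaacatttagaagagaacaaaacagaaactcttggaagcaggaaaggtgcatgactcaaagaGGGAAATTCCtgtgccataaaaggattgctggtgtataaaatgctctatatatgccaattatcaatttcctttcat
CXCL9 held 1 response element match, beginning 171 bases before the start. In CXCL10 there was 1 response element match, at 221 bases before the start, and 2 NF-κB matches, at 177 and 122 bases. CXCL11 held 1 NF-κB match, at 76 bases, and its RefSeq start lies inside the longer gene span of the deposited table.

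The second set are the CXC genes that bind CXCR2. For each of them, positions 100 to 51 before the RefSeq start are shown, with capitals again marking NF-κB matches. The RefSeq starts of CXCL2, CXCL3, CXCL5, CXCL6 and CXCL8 also lie inside the deposited gene spans. The stretches shown for CXCL3, CXCL5 and CXCL6 lie wholly within those spans.
CXCL8 (chr4:73740469-73740518, plus strand): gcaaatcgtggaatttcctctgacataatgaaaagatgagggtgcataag
CXCL6 (chr4:73836578-73836627, plus strand): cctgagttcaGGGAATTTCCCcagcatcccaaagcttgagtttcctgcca
CXCL1 (chr4:73869293-73869342, plus strand): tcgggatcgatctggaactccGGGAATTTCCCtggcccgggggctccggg
CXCL5 (chr4:73998728-73998777, minus strand): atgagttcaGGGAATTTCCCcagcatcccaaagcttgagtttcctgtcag
CXCL3 (chr4:74038740-74038789, minus strand): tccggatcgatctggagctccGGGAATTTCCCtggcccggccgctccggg
CXCL2 (chr4:74099246-74099295, minus strand): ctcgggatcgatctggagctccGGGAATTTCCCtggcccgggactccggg
The same run of 11 letters stands in 5 of these 6 stretches, where it counts as 2 overlapping matches, 1 on each strand. The CXCL8 stretch holds only a part of that run (ggaatttcc). Only exact matches were marked, so that a stretch without capitals may still hold a site. Over 46 of the 67 members with a window of 250 bases in RefSeq, 4 held the response element core (8.7%) and 10 the NF-κB consensus (21.7%). Among all 35116 windows of the same length, the shares were 3.02% and 5.21%. Of the 10 members with the NF-κB consensus, 5 were the genes with the shared run. The consensus stood in 2 of 12 windows of members called higher in Molm13 and in 7 of 30 of members not tested there. In THP1 it stood in 4 of 11 called higher, 1 of 4 called lower and 4 of 26 not tested. No window was available for CCL2, CCL4, CCL4L2, CCL5 and CXCL16, among others. A match describes letters and is not evidence of binding.

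Of the 67 genes, 58 had at least 1 count in some library and 9 had 0 counts in all 8 (ACKR1, CCL1, CCL11, CCL14, CCL27, CCR8, CXCL17, CXCR6 and XCL2). Detection was lower in Molm13, with 41 genes (23 ligands and 18 receptors), than in THP1, with 57 (39 ligands and 18 receptors), and the THP1 libraries were also deeper. Totals ran from 18720950 to 21241742 counts in Molm13 and from 25127517 to 27356870 in THP1. The filter on low counts left 22 members to test in Molm13, 25 in THP1 and 32 in either line. Another 26 were detected but tested in neither line, and none of these exceeded 12 counts in a library (CCL16 in THP1). In 16 members of each line, at least 1 library exceeded an RPKM (reads per kilobase of exon, scaled to library size) of 1.

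PRMT9 itself fell in both shPRMT9 groups, by 2.68 ± 0.14 on the log2 scale in Molm13 and by 2.29 ± 0.13 in THP1 (± SE). Library names in the THP1 table contain the letters OCI, and the study used the B-cell lymphoma line OCI-Ly3 elsewhere. All 10 myeloid markers were detected in every group, at a summed 2080 to 2740 RPKM in the THP1 libraries, whereas 7 B-cell markers summed to between 0.965 and 2.29 RPKM there. Such markers cannot tell THP1 from another myeloid line, so that the line is taken as labeled and was not tested. Some marker sums moved with shPRMT9. The myeloid sum was 1060 in both Molm13 shCtrl libraries and 1290 in both shPRMT9 libraries, and 2080 to 2120 against 2670 to 2740 in THP1. The sum followed LYZ, with 364 in both Molm13 shCtrl libraries against 564 and 571 RPKM, and 1065 and 1074 against 1770 and 1683 in THP1. Single markers went both ways. ITGAM was at 5.53 and 5.23 against 20.5 and 20.5 RPKM and CSF1R at 2.96 and 2.81 against 11.9 and 11.8 in Molm13, and CD14 was at 0.493 and 0.462 against 2.42 and 2.57 in THP1. MPO and ELANE were lower in every shPRMT9 library of both lines, and CEBPA in those of THP1. The T and NK cell list (7 genes, 2 of them above 1 RPKM in each group) summed to 31.8 to 33.2 against 42.3 to 44 RPKM in Molm13 and to 19.5 to 20 against 22.1 to 22.2 in THP1, with CD3D and CD3E at 0 in both shCtrl groups. The stroma and endothelium list, in which only PECAM1 exceeded 1 RPKM, summed to 20.4 to 21.1 against 35.7 to 36 in Molm13 and to 48.6 to 48.7 against 105 in THP1. Their part in the results was not tested. In bulk RNA, a change in the number of cells of a given kind and a change in RNA per cell cannot be told apart.

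Without KD, receptors took 4 of the 5 highest levels in each line. In Molm13 shCtrl cells the highest levels were those of CXCR4, the receptor of CXCL12, at 85.2 ± 2.63 RPKM, CCL5 at 16.1 ± 1.6, CCR2 at 13.5 ± 0.37, CCR1 at 12.7 ± 0.617 and CX3CR1 at 11.9 ± 0.0179 (SD, n = 2 each). The order of CCR2 and CCR1 was within about their spread. In THP1 shCtrl cells CCR2, which binds CCL2 and CCL8, led with 44.6 ± 0.694 RPKM, ahead of CXCR4 (31.7 ± 1.25), CCR1 (14.6 ± 0.268), CCL5 (9.82 ± 0.138) and CXCR2 (7.83 ± 0.214).

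**Figure D1:**
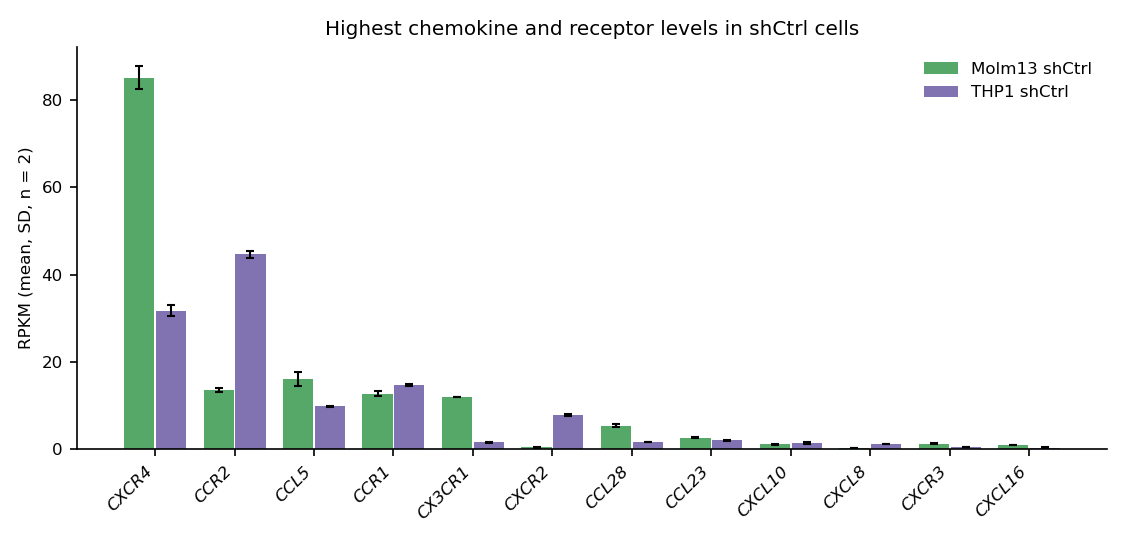
Mean level of 12 chemokine and receptor genes in the shCtrl cells of each line, in RPKM, with the SD over 2 libraries as error bars. CXCR4 leads in Molm13 at 85.2 RPKM and CCR2 in THP1 at 44.6 RPKM.

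The shCtrl lines were compared in a fit of all 8 libraries. Of 32 members tested, 21 differed at a false discovery rate (FDR) below 0.05 (quasi-likelihood test of edgeR, Benjamini-Hochberg adjusted over all genes), and 82.8% of all 19288 genes did so. In 9 members the level was higher in THP1 and in 12 it was higher in Molm13. The largest gap between well-counted receptors was that of CXCR2, which binds CXCL8. It had 26 and 20 counts in Molm13 and 662 and 684 in THP1, a log2 difference of 4.45 ± 0.14 (SE, adjusted p = 1.76e-48 by edgeR). CCR2 was higher in THP1 by 1.73 ± 0.04 on the log2 scale. CX3CR1 and CXCR4 were lower in THP1, with log2 differences of −2.99 ± 0.09 and −1.42 ± 0.04. Of the ligands, CXCL8 was higher in THP1 (2.15 ± 0.28), and CCL28 (−1.75 ± 0.10) and CCL5 (−0.71 ± 0.08) were lower. CCL22, a ligand of CCR4, had 1 and 0 counts in Molm13 shCtrl cells and 72 and 55 in THP1. The lines came in separate tables, so that line and handling cannot be told apart.

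After PRMT9 KD, 17 of 22 tested members rose in Molm13 at an FDR below 0.05 by edgeR's quasi-likelihood test, where 66.9% of all 16446 genes passed in either direction and 33.4% rose. None fell, none fell at an unadjusted p below 0.05, and DESeq2 called 13 higher and 0 lower. The median log2 fold change was 0.94 over these members and 0.000472 over all genes. Differentially expressed genes (DEGs) needed an FDR under 0.05, at least a change of 1.5-fold up or down, and more than 1 RPKM in any library. By this rule 11 members were DEGs, all upregulated, against 22.8% of all genes (11.4% upregulated). In THP1, 19 of 25 members passed the FDR, where 37.6% of 16294 genes did. Of these, 14 rose (19% of all genes) and 5 fell (18.6%), with a median of 0.826 against −0.000631 over all genes. DESeq2 called 11 higher and 2 lower in THP1. THP1 had 13 DEGs among the members, 10 upregulated and 3 downregulated, against 6.21% of all genes (3.82% and 2.39%).

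The shPRMT9 libraries lay entirely above the shCtrl libraries for 19 of the 22 members in Molm13 (40.1% of all genes) and for 16 of 25 in THP1 (31.5%). They lay entirely below for 0 members in Molm13 (41.7% of all genes) and for 6 in THP1 (34.9%). In either direction, the groups did not overlap for 81.8% of all genes in Molm13 and 66.3% in THP1. Some members reached the filter only through their level after KD, which favors a rise, and they enter the counts and medians given for the members as a whole. Of these, CCR3 in Molm13 and CCL20 in THP1 did not pass the test. In Molm13, 6 members entered in this way, and of the 16 that passed in both groups, 12 rose and 4 did not pass the test. In THP1, 8 entered through shPRMT9 only, and of the other 17, 7 rose, 5 fell and 5 did not pass. Over these 17 the middle log2 fold change was 0.158 (CXCL16), below the median of all tested members. Over the 16 of Molm13 the middle values were 0.768 (CCL5) and 0.778 (CXCR2).

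Among the ligands, 11 of 12 rose in Molm13 (median log2 fold change 1.62), and in THP1 11 of 17 rose and 3 fell (median 1.92, also with CCL4 set to its lower bound). Of all genes, 33.4% rose in Molm13, and 19% rose and 18.6% fell in THP1. Of the tested ligands, 8 in Molm13 and 10 in THP1 passed the filter in both groups, and among them 7 rose and 0 fell in Molm13, and 5 rose and 3 fell in THP1. Their middle values were 0.902 (CXCL8) and 0.923 (CXCL16) in Molm13 and 0.826 (CCL3L3) and 1.30 (CCL5) in THP1. The ligands that entered only after KD were CCL24, CCL3, CCL4L2 and CXCL9 in Molm13 and CCL3, CCL4, CCL8, CCL20, CXCL1, CXCL2 and CXCL13 in THP1. For the receptors, 6 of 10 rose in Molm13 (median 0.659), and in THP1 3 of 8 rose and 2 fell (median −0.0752). CCR3 and CCR7 in Molm13 and CCR4 in THP1 entered through shPRMT9 only. Of 15 members tested in both lines, 7 rose in both, namely CXCL10, CXCL11, CXCL8, CCL3, CCL5, CCR1 and CCR2. The share of all genes that rose in both lines is not given here. CCL28 and CX3CR1 rose in Molm13 and fell in THP1.

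**Figure D2:**
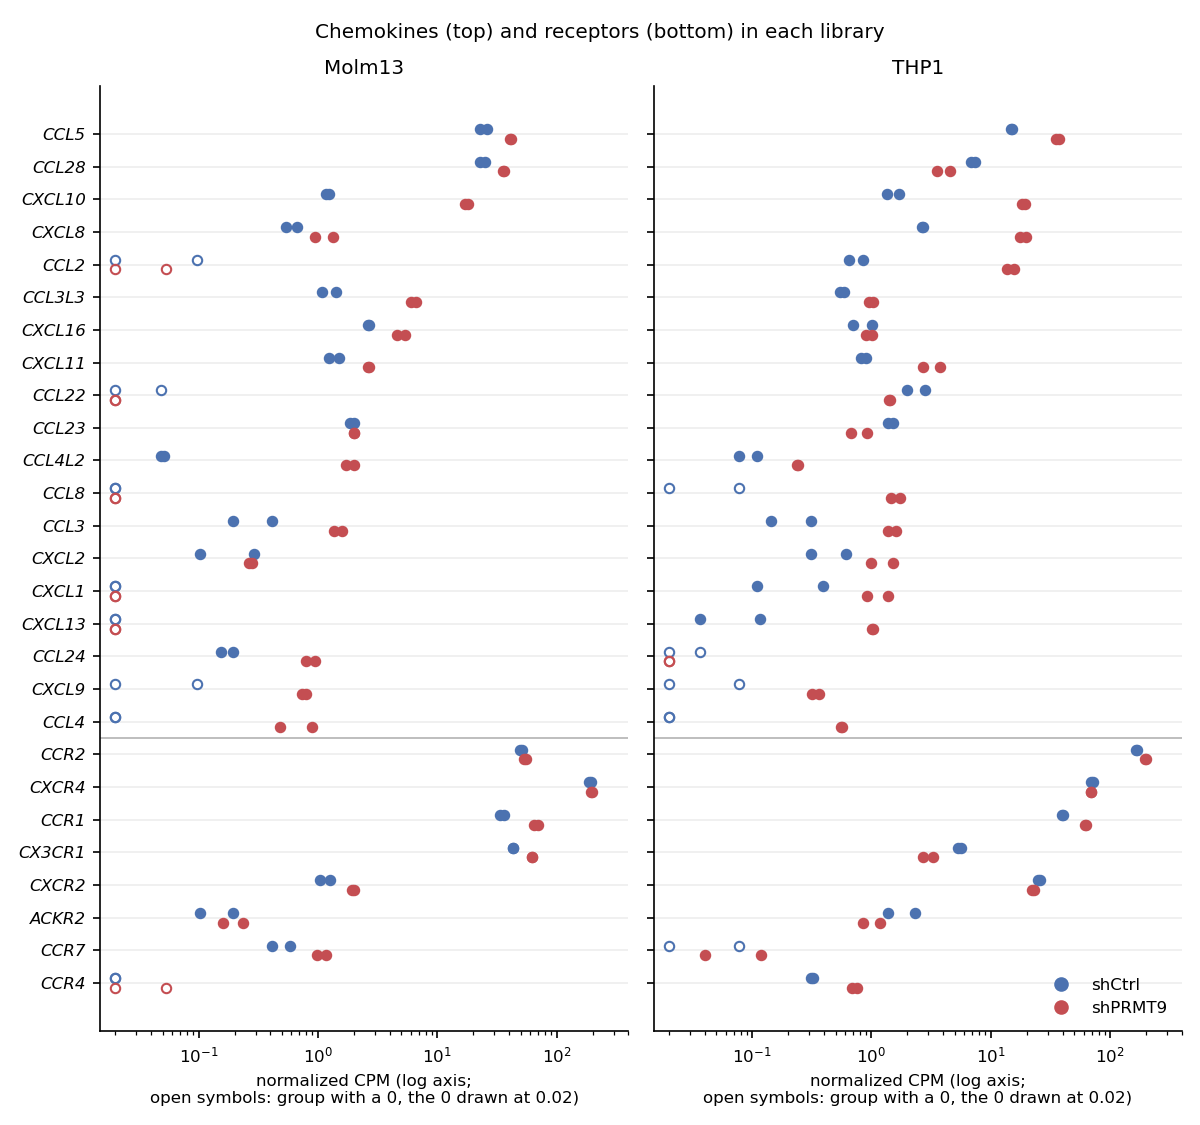
Normalized CPM (counts scaled to library size, log axis) of 27 members in each library, chemokines above the line and receptors below it, with blue points for shCtrl and red points for shPRMT9. CXCL10 lies higher after KD in both lines, whereas CXCR4 overlaps between the groups in both.

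Among the CXCR3 ligands, which attract activated T cells and NK cells, CXCL10 moved alike in both lines. Its counts were 24 and 24 in Molm13 shCtrl cells and 322 and 387 after KD, and 44 and 37 against 492 and 458 in THP1. The KD libraries of both lines lay far above their controls, with log2 fold changes of 3.88 ± 0.15 for Molm13 and 3.64 ± 0.14 for THP1 (SE, adjusted p = 7.81e-26 and 1.54e-18 by edgeR). The difference between the lines was −0.22 ± 0.28 (adjusted p = 0.575). A difference of that size was not detectable with these libraries.
CXCL11 had 31 and 24 counts in Molm13 shCtrl cells and 50 and 57 after KD. In THP1 the counts were 21 and 25 against 96 and 68. The groups did not overlap in either line, and the log2 fold changes were 0.96 ± 0.24 (adjusted p = 6.59e-04) and 1.92 ± 0.25 (5.23e-07).
CXCL9 was scarce, with 2 and 0 counts in Molm13 shCtrl cells and 14 and 17 after KD. This is a ratio of 15.4 with a 95% exact interval from 3.91 to 132, and the fitted log2 fold change of 3.80 ± 0.71 (adjusted p = 9.72e-06) became 6.95 without shCtrl replicate 1 and 2.91 without shCtrl replicate 2. In THP1, where it was not tested, CXCL9 had 2 and 0 counts against 8 and 9, a ratio of 9 (2.14 to 80.3). These intervals cover counting error only. The receptor CXCR3 itself had 41 and 45 counts against 48 and 32 in Molm13 and 20 and 20 against 21 and 13 in THP1, and it passed the test in neither line.

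The ligands of CXCR2, which recruit neutrophils, were mainly seen in THP1. CXCL8 (interleukin 8) had 68 and 75 counts in THP1 shCtrl cells and 497 and 441 after KD, a log2 fold change of 2.81 ± 0.12 (SE, adjusted p = 3.69e-17 by edgeR). In Molm13 its counts were 11 and 13 against 25 and 20, or 0.90 ± 0.37 (adjusted p = 0.0306). That call was lost without Molm13 shCtrl replicate 1 (0.75, adjusted p = 0.181), shCtrl replicate 2 (1.06, 0.0584) or shPRMT9 replicate 1 (0.65, 0.322), and with DESeq2 (adjusted p = 0.224).
CXCL1 had no count in any Molm13 library. In THP1 it had 10 and 3 counts against 35 and 23, a log2 fold change of 2.23 ± 0.46 (adjusted p = 3.11e-04), which was 3.37 without shCtrl replicate 1 and 1.56 without shCtrl replicate 2. The spread between its control libraries was wide but did not reach the KD libraries.
CXCL2 in THP1 had 8 and 17 counts against 25 and 38, or 1.42 ± 0.38 (adjusted p = 0.0039), and it missed the threshold without shCtrl replicate 1 (1.03, adjusted p = 0.0702) or shPRMT9 replicate 2 (1.08, 0.0955). CXCL3 and CXCL6, seen only in THP1 and too scarce to test, had 2 and 5 against 9 and 8 counts and 3 and 5 against 7 and 12 counts. CXCL5 was at 1 count in all THP1 libraries together.
Their receptor CXCR2 had 26 and 20 counts against 38 and 41 in Molm13, a log2 fold change of 0.78 ± 0.28 (adjusted p = 0.0128), and 662 and 684 against 566 and 574 in THP1, −0.15 ± 0.07 (0.106). The Molm13 call was lost without shCtrl replicate 2 (adjusted p = 0.0921), shPRMT9 replicate 1 (0.0726) or shPRMT9 replicate 2 (0.0531), and with DESeq2 (0.151).

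CCL2 and CCL8, monocyte attractants that bind CCR2 and related receptors, were measured mainly in THP1. CCL2 had 22 and 18 counts in THP1 shCtrl cells and 394 and 343 after KD, a log2 fold change of 4.29 ± 0.17 (SE, adjusted p = 7.24e-18 by edgeR). Its normalized level in THP1 thus went from 0.38 ± 0.0727 to 7.38 ± 0.636 RPKM (SD, n = 2 each). The 4 Molm13 libraries together held 3 counts of CCL2 and 0 of CCL8. In THP1, CCL8 had 2 and 0 counts against 37 and 43, a ratio of 42.3 (95% exact interval 11.3 to 356). The fitted log2 fold change of 5.24 (adjusted p = 4.61e-08) was 8.38 without shCtrl replicate 1, which held both control counts, and 4.27 without shCtrl replicate 2.

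CCL3, CCL4 and CCL5 attract monocytes and T cells. CCL5, the most abundant ligand, had 534 and 439 counts against 768 and 889 in Molm13 and 377 and 413 against 890 and 932 in THP1. It rose by 0.77 ± 0.07 in Molm13 and by 1.30 ± 0.07 in THP1 on the log2 scale (SE, adjusted p = 5.91e-14 and 1.15e-14 by edgeR), with no overlap between groups in either line.
CCL3 had 4 and 8 counts against 30 and 29 in Molm13 and 8 and 4 against 41 and 34 in THP1. The log2 fold changes were 2.28 ± 0.41 (adjusted p = 4.99e-06) and 2.71 ± 0.42 (5.55e-06). Its near-identical copy CCL3L3 had 29 and 21 counts against 114 and 142 in Molm13, or 2.35 ± 0.20 (adjusted p = 5.06e-14), and 15 and 15 against 26 and 24 in THP1, or 0.83 ± 0.36 (0.0728). CCL3L3 thus carried more counts than CCL3 in every Molm13 library.
CCL4 had no count in the 4 shCtrl libraries. After KD it had 9 and 19 counts in Molm13 and 14 and 14 in THP1, which is at least 9.24-fold and 9.88-fold higher against a floor of 3 counts over the control group. Its copy CCL4L2 had 1 and 1 counts against 38 and 37 in Molm13, a ratio of 37.1 (95% exact interval 9.93 to 312; adjusted p = 6.81e-11 by edgeR), and 2 and 3 against 6 and 6 in THP1.
Reads from such copies can be split between them by the counting, and CCL3 and CCL3L3 each overlap an antisense gene, while the strand setting of the counting was not given in the sources used here. The pairs were therefore also summed, a choice made after the data were seen. CCL3 plus CCL3L3 went from 33 and 29 to 144 and 171 counts in Molm13 (log2 fold change 2.34 ± 0.18) and from 23 and 19 to 67 and 58 in THP1 (1.66 ± 0.27). CCL4 plus CCL4L2 went from 1 and 1 to 47 and 56 in Molm13 and from 2 and 3 to 20 and 20 in THP1. Both sums rose in both lines, with adjusted p of at most 8.23e-05 by edgeR.

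CCL24, CXCL13 and CXCL16 passed the test in 1 line each. For CXCL16 the difference in response between the lines did not pass (adjusted p = 0.0992 by edgeR). CXCL13 had no counts in Molm13, so that its difference could not be estimated. The difference of CCL24 (adjusted p = 0.18 by edgeR) rests on 1 count in THP1 and could not be judged. CCL24, an eosinophil attractant that binds CCR3, had 4 and 3 counts against 15 and 20 in Molm13 (log2 fold change 2.28 ± 0.52, adjusted p = 1.5e-04 by edgeR) and 1 count in all THP1 libraries together. CXCL13, the B-cell attractant that binds CXCR5, was at 0 in Molm13 and had 3 and 1 counts against 26 and 25 in THP1 (3.68 ± 0.57, adjusted p = 6.52e-06). The CXCL13 value ran from 3.07 without THP1 shCtrl replicate 2 to 4.65 without shCtrl replicate 1, and DESeq2 gave it no adjusted p. CXCL16, a membrane-bound ligand of CXCR6, had 54 and 52 counts against 102 and 99 in Molm13 (0.92 ± 0.18, adjusted p = 1.42e-05) and 18 and 28 against 23 and 25 in THP1 (adjusted p above 0.05). CXCL16 shares 85 exon bases with MED11 on the opposite strand. CCL20, which binds CCR6, had 8 and 9 counts against 11 and 17 in THP1 and did not pass (adjusted p = 0.199).

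In THP1, 3 ligands fell. CCL28, a mucosal chemokine that binds CCR10 and CCR3, had 516 and 441 counts against 674 and 771 in Molm13 and 176 and 203 against 116 and 88 in THP1. Its KD libraries were thus all above the controls in Molm13 and all below them in THP1, and its log2 fold changes were 0.59 ± 0.07 and −0.80 ± 0.14 (SE, adjusted p = 1.25e-10 and 4.58e-05 by edgeR). CCL23, a ligand of CCR1, had 38 and 39 counts against 38 and 43 in Molm13 (0.07, adjusted p = 0.804) and 39 and 38 against 17 and 23 in THP1 (−0.85 ± 0.31, 0.0323). The fall of CCL23 was not called without THP1 shCtrl replicate 1 (adjusted p = 0.155), shCtrl replicate 2 (0.0703) or shPRMT9 replicate 1 (0.211), nor with DESeq2 (0.199). CCL22 had 72 and 55 counts against 36 and 35 in THP1 (−0.74 ± 0.24, adjusted p = 0.0163), and it was not called without shCtrl replicate 1 (−0.48, 0.258) or with DESeq2 (0.13).

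**Figure D3:**
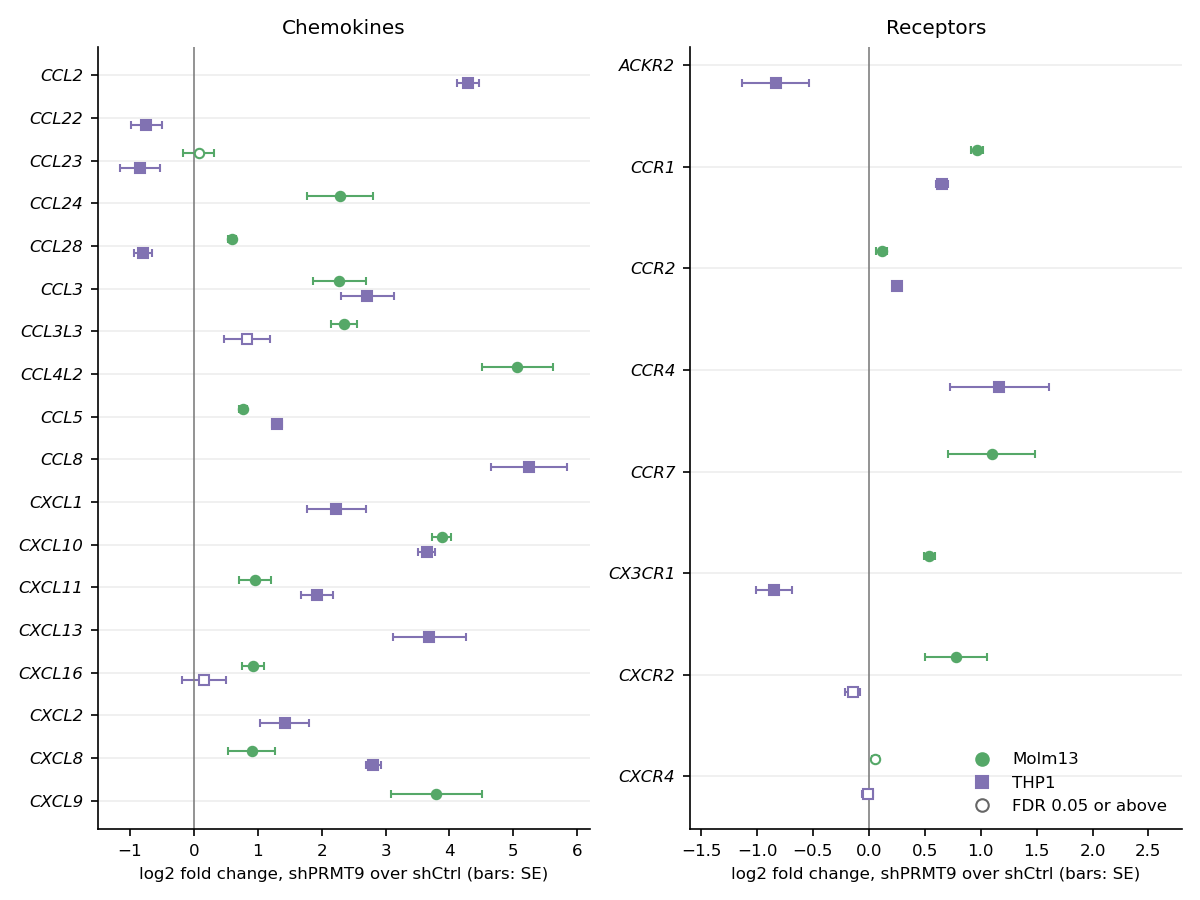
Log2 fold change, shPRMT9 over shCtrl, of 18 chemokines and 8 receptors in Molm13 (circles) and THP1 (squares), with the SE as bars and open symbols at an FDR of 0.05 or above. CCL4 is left out because its controls were at 0, the values of CCL8, CXCL9 and CCL4L2 rest on 2 control counts, and CCL28 and CX3CR1 lie on opposite sides of 0 in the lines.

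Of the receptors, CCR1 rose in both lines and was a DEG in each. It binds CCL3, CCL5 and CCL23 and had 686 and 695 counts against 1320 and 1371 in Molm13 and 1036 and 1084 against 1595 and 1534 in THP1. The log2 fold changes were 0.96 ± 0.05 and 0.66 ± 0.05 (SE, adjusted p = 6.18e-20 and 4.5e-11 by edgeR), with no overlap between groups.
CX3CR1, the fractalkine receptor of monocytes, had 890 and 840 counts against 1178 and 1339 in Molm13 (0.54 ± 0.05, adjusted p = 5.09e-13) and 144 and 146 against 83 and 68 in THP1 (−0.85 ± 0.16, 8.9e-05). Every KD library lay above its controls in Molm13 and below them in THP1. Its ligand CX3CL1 was at 1 count in all Molm13 libraries and at 25 in all THP1 libraries together.
CCR2 moved little in either line. Its levels were 49.5 and 51.4 against 53 and 55.1 normalized CPM in Molm13 (log2 fold change 0.11 ± 0.05, adjusted p = 0.043) and 165 and 168 against 198 and 196 normalized CPM in THP1 (0.25 ± 0.03, 9.51e-07). The Molm13 call was lost without shCtrl replicate 1 (adjusted p = 0.209) or shPRMT9 replicate 2 (0.206), without the filter (0.177), in the common fit of 8 libraries (0.0617) and with DESeq2 (0.253).
CXCR4, the most abundant receptor in Molm13, did not pass. It had 3792 and 3747 counts against 3649 and 4190 in Molm13 (0.06 ± 0.03, adjusted p = 0.102 by edgeR) and 1859 and 1888 against 1753 and 1732 in THP1 (−0.01 ± 0.05, 0.887). The Molm13 value of CXCR4 ran from 0.027 without shCtrl replicate 1 to 0.080 without shCtrl replicate 2, and in the latter fit it was called higher.

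Among scarcer receptors, CCR7, which guides cells to lymph nodes, had 12 and 8 counts against 22 and 21 in Molm13 (log2 fold change 1.10 ± 0.39, adjusted p = 0.0124 by edgeR). CCR4 in THP1 had 8 and 9 counts against 19 and 17 (1.16 ± 0.44, 0.0393). The CCR7 call was lost without shCtrl replicate 2 (adjusted p = 0.122), shPRMT9 replicate 1 (0.134) or shPRMT9 replicate 2 (0.0505) and with DESeq2 (0.153), and the CCR4 call was lost when any 1 of the 4 THP1 libraries was left out (adjusted p from 0.12 to 0.19) or without the filter (0.0537). ACKR2, an atypical receptor that clears CC chemokines, had 59 and 38 counts against 30 and 21 in THP1 (−0.83 ± 0.30, adjusted p = 0.0279). That fall was not called without shCtrl replicate 1 (−0.42, 0.455) or shPRMT9 replicate 2 (−0.61, 0.166) or with DESeq2 (0.163), and ACKR2 shares exon sequence with several genes, CYP8B1 among them. CCR3 had 4 and 9 counts against 15 and 11 in Molm13 (adjusted p = 0.0761) and CCR10 had 13 and 11 against 15 and 14, and neither passed. ACKR3 was not tested, with 2 and 0 counts against 8 and 0 in Molm13 and 9 and 6 against 3 and 4 in THP1.

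The difference in response between the lines was tested directly in the fit of 8 libraries. Of 32 members, 11 differed at an FDR below 0.05 by edgeR's quasi-likelihood test, where 42.2% of 19288 genes did. For 5 of them the response was higher in THP1 (22.8% of all genes) and for 6 it was lower (19.4%). CCL28 and CX3CR1, which changed sign, gave log2 differences of −1.38 ± 0.15 and −1.37 ± 0.16 (THP1 minus Molm13, SE, adjusted p = 2.74e-13 and 8.41e-13). The rises of CXCL8 and CCL5 were larger in THP1, by 1.92 ± 0.42 and 0.54 ± 0.10, and that of CCR1 was smaller, −0.30 ± 0.08.
CCL3L3 (−1.51 ± 0.43, adjusted p = 0.00248) and CCL4L2 (−3.76 ± 1.25, 0.00987) also differed. Summed with their copies they did not pass, with −0.67 ± 0.35 (adjusted p = 0.125) for CCL3 plus CCL3L3 and −2.50 ± 1.18 (0.0795) for CCL4 plus CCL4L2.

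By position, 16 members lie within chr17:34255218-36212878 and 12 within chr4:73740506-77611834 on hg38, the build of the deposited coordinates. The chromosome 4 group holds the CXCR2 and CXCR3 ligands and CXCL13. In Molm13, 5 of its 12 genes were detected and all 4 tested genes rose (CXCL8, CXCL9, CXCL10 and CXCL11). In THP1 all 12 were detected and all 6 tested genes rose. CXCL9 in Molm13 and CXCL1, CXCL2 and CXCL13 in THP1 reached the filter only through shPRMT9, and 33.4% and 19% of all genes rose in the respective lines. From the chromosome 17 group, 4 of 5 tested genes rose in Molm13, and in THP1 5 of 7 rose and 1 fell (CCL23). In this group CCL3 and CCL4L2 in Molm13 and CCL3, CCL4 and CCL8 in THP1 entered through shPRMT9 only. CCL1, CCL11 and CCL14 in that group stayed at 0 counts in all 8 libraries beside neighbors that rose.

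**Figure D4:**
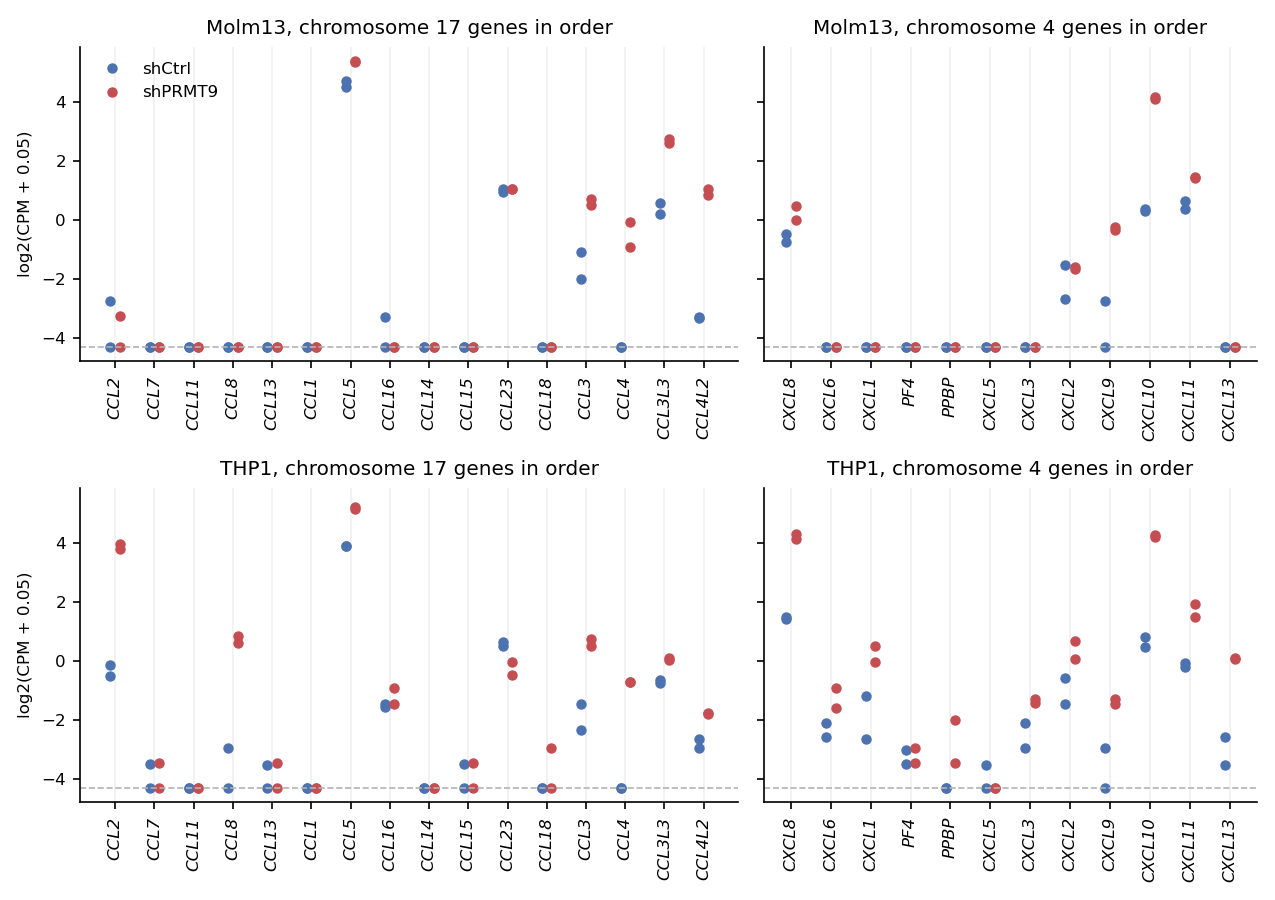
Level of each gene of the chromosome 17 and chromosome 4 groups in each library, in gene order, as log2(CPM + 0.05), with blue points for shCtrl, red points for shPRMT9 and a dashed line at 0 counts. In Molm13 most of the chromosome 4 genes from CXCL6 to CXCL3 sit at 0 counts, whereas in THP1 all 12 have counts.

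The surrounding pathway was followed with 3 lists of genes. The first, receptor signaling, holds 30 G-protein subunits, kinases, arrestins, exchange factors and RGS proteins that act below chemokine receptors. In Molm13, 21 of 29 tested genes rose, 5 fell and 3 did not pass (median log2 fold change 0.451), where 33.4% of all genes rose and 33.5% fell. In THP1, 5 of 28 rose, 8 fell and 15 did not pass, with a median of −0.00172, beside 19% of all genes that rose and 18.6% that fell. Scaled to library size alone, the THP1 calls were 2 higher and 11 lower, and without shPRMT9 replicate 2 they were 3 higher and 5 lower. RGS1 and RGS2, which shorten G-protein signaling, rose most in Molm13, by 2.89 ± 0.11 and 1.54 ± 0.12 on the log2 scale (SE), and the G-protein subunit GNB1 had the largest fall there (−0.51 ± 0.03). The kinase gene GRK5 was lower in both lines, at −0.30 ± 0.12 in Molm13 (adjusted p = 0.0283 by edgeR) and −1.24 ± 0.25 in THP1 (2.51e-04). The Molm13 value of GRK5 lost its call when any 1 Molm13 library was left out (−0.32 to −0.26) and with DESeq2 (adjusted p = 0.231). The largest rises in THP1 were small, 0.22 ± 0.03 for GNAI2 and 0.22 ± 0.08 for PIK3R5. The PIK3R5 call was lost without shCtrl replicate 1 (0.13) or shPRMT9 replicate 1 (0.17). It was also lost with DESeq2 (adjusted p = 0.196), and by edgeR without the filter (0.111) or with library size alone (0.0719). GNAI1, with −0.51 ± 0.18 in THP1, missed the threshold without shCtrl replicate 1 (−0.49), shPRMT9 replicate 1 (−0.51) or shPRMT9 replicate 2 (−0.51). It also missed the threshold with DESeq2 (adjusted p = 0.185).

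The second list, 20 other chemoattractants and their receptors, had 8 genes higher and 1 lower of 14 tested in Molm13 (median 0.456) and 11 higher and 1 lower of 17 in THP1 (median 0.57), to be read against the same shares of all genes. CMKLR1, the chemerin receptor, rose in both lines, by 2.01 ± 0.42 in Molm13 (SE, adjusted p = 5.47e-05 by edgeR) and 4.63 ± 0.68 in THP1 (2.97e-06). In THP1 this value rests on 1 and 1 control counts, against 18 and 34 after KD, and DESeq2 gave no adjusted p. C3AR1, the receptor of complement C3a, rose by 2.25 ± 0.23 in Molm13 and by 1.35 ± 0.17 in THP1 (adjusted p = 2.26e-07). The formyl peptide receptor gene FPR3 had 1 and 0 counts against 30 and 14 in THP1. Its fitted value of 5.23 ± 0.83 rests on that 1 control count, ran from 4.33 to 7.52 when 1 library was left out, and had no adjusted p by DESeq2. MIF, a cytokine that also binds CXCR2 and CXCR4, fell in THP1 (−0.54 ± 0.07), and CMTM6 fell in Molm13 (−0.23 ± 0.03).
The third list, 20 genes of chemokine processing and shedding, had 11 higher and 4 lower of 16 in Molm13 (median 0.313) and 11 higher and 5 lower of 17 in THP1 (median 0.31). Of all genes, 33.5% in Molm13 and 18.6% in THP1 were lower, and 33.4% and 19% were higher. MMP9, a metalloproteinase that trims chemokines, rose in both lines, by 1.66 ± 0.51 in Molm13 (adjusted p = 0.00417 by edgeR) and 3.90 ± 0.21 in THP1 (8.58e-15). Its Molm13 counts were 4 and 5 against 16 and 13. The Molm13 call was lost without shCtrl replicate 1 (1.48) or shPRMT9 replicate 1 (1.43), and with DESeq2 (adjusted p = 0.0946). DPP4, a peptidase that clips the start of several chemokines, had 1.13 ± 0.32 in Molm13 (adjusted p = 0.00227 by edgeR) and −1.27 ± 0.19 in THP1 (4.65e-06). The Molm13 call of DPP4 was lost without shPRMT9 replicate 2 (0.89) and with DESeq2 (adjusted p = 0.0702). SDC4 rose in THP1 (1.30 ± 0.08). SDC1, another proteoglycan that holds chemokines, fell there (−1.38 ± 0.48, adjusted p = 0.0243 by edgeR). That fall was not called without shCtrl replicate 1 (−0.74) or shPRMT9 replicate 2 (−1.13), and DESeq2 gave it no adjusted p. The protease CTSG fell in both lines, at −0.44 ± 0.02 in Molm13 and −1.25 ± 0.04 in THP1 (adjusted p = 5.28e-20). ADAM17, a sheddase, fell in Molm13 (−0.27 ± 0.05) and rose in THP1 (0.57 ± 0.04, adjusted p = 1.12e-11), a difference between the lines at an adjusted p of 5.09e-20.

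As a sum over all members, chemokine and receptor reads summed to 384 and 381 CPM in Molm13 shCtrl cells and 515 and 513 after KD. The sums in THP1 were 350 and 348 against 470 and 460 CPM.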

How the data were processed

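Polyadenylated RNA of 8 libraries, 2 per group, was sequenced. Per the labels' processing notes, the submitters used TopHat2 2.0.8, HTSeq 0.11.2, edgeR 3.30.3 and hg38. The annotation and strand setting are not given in the sources used here. The authors deposited counts, whole reads per gene without normalization, in 1 table per line, and exon lengths for Molm13, which were also used for THP1.

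In R 4.3.3, all genes of each line were fitted by edgeR 4.0.16 (TMM normalization, filterByExpr, quasi-likelihood test, Benjamini-Hochberg adjustment), shPRMT9 against shCtrl, with DESeq2 1.42.0 as an alternative. A joint fit of 8 libraries tested differences between the lines. CPM and RPKM were computed from TMM library sizes. The tests were tried on simulated counts. The SE was taken as |log2 fold change| over the root of the F value. Intervals and the floor of 3 counts cover counting error only. The replicates of each group were compared, and none agreed within sampling noise.

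The members and lists were chosen with earlier results of these data known. Named are members past an FDR of 0.05 in either line or among the 5 highest by RPKM, the 2 largest rises and falls per list and line, and other members where their counts are given. Promoter windows come from RefSeq on GRCh38.p14. Protein classes were not analysed here, and 1 member that the rule names is not reported here. Alternatives were other normalizations, filters, tests and fold limits, a common fit, a replicate block, and leaving out each library.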

Additional observations from a re-analysis of the deposited data

Results flagged for a closer look

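The response to shPRMT9 differed between the lines for 11 of 32 members by the interaction test of edgeR, where 42.2% of all genes differed. Each value is the log2 fold change in THP1 minus that in Molm13. The response was higher in THP1 for CCL2 (5.16, adjusted p = 0.0165), CXCL8 (1.92, 7.83e-05), CXCL11 (0.98, 0.0261), CCL5 (0.54, 3.91e-06) and CCR2 (0.15, 0.0326). It was lower in THP1 for CCL4L2 (−3.76, 0.00987), CCL3L3 (−1.51, 0.00248), CCL28 (−1.38, 2.74e-13), CX3CR1 (−1.37, 8.41e-13), CXCR2 (−0.91, 0.00359) and CCR1 (−0.30, 9.37e-04). The 4 Molm13 libraries held 3 counts of CCL2, and its difference was 1.76 (adjusted p = 0.968) without Molm13 shCtrl replicate 1, 4.18 (0.0553) without Molm13 shPRMT9 replicate 2 and 7.65 without Molm13 shPRMT9 replicate 1. The CCR2 difference lost its call in 12 of 13 alternatives, each single library left out included. CXCL11 lost it without Molm13 shCtrl replicate 1 (0.78, adjusted p = 0.18), Molm13 shPRMT9 replicate 1 (0.94, 0.0555) or replicate 2 (0.94, 0.0612), THP1 shCtrl replicate 1 (0.87, 0.0806) or THP1 shPRMT9 replicate 1 (0.69, 0.172) and with DESeq2 (0.95, 0.145), and CCL4L2 lost it without THP1 shCtrl replicate 2 (adjusted p = 0.103). Groups of 2 libraries are too small to look for a library far from the others. Line and handling cannot be told apart, and the cause of these differences was not tested.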

How the results depend on the processing

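With a fold change limit of 2 in place of 1.5, the Molm13 DEGs went from 11 to 6 and those of THP1 from 13 (10 higher, 3 lower) to 9, with 0 lower. The shares of all genes at that limit are not given here. With DESeq2, the receptor signaling genes past the FDR in THP1 went from 13 to 7, and the THP1 members past it from 19 to 13. The cause was not tested. Leaving out 1 library at a time gave 10 to 11 DEGs among the members in Molm13 and 11 to 12 in THP1, 14 to 17 members past the FDR in either line, 9 to 11 whose response differed and 21 to 24 that differed between the shCtrl lines, and PRMT9 values from −2.81 to −2.55 and from −2.39 to −2.19. Without THP1 shCtrl replicate 1, 2 values that had not passed changed sign, CXCL16 (−0.0726, up to 0.445 with other libraries left out) and CXCR4 (0.0337, down to −0.0609). Same-numbered libraries did not deviate together (correlation −0.087 in Molm13 and −0.0146 in THP1). With so few libraries, this cannot show whether they shared a culture or handling. With the replicate block, the DEGs numbered 11 and 13, the receptor signaling genes past the FDR in THP1 went from 13 to 11, and of the single genes followed 1 call was lost, that of CXCL11 between the shCtrl lines (−0.56, adjusted p = 0.137). That call was also lost with DESeq2 and without 3 of the libraries. The CCL24 call between the shCtrl lines was lost with DESeq2 (adjusted p = 0.0765) and without Molm13 shCtrl replicate 1 or THP1 shCtrl replicate 1. For CXCL1 the call between the shCtrl lines was lost without THP1 shCtrl replicate 1. Depth limits the scarce ligands, whose changes rest on few control counts.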
